A study of Mus musculus with 2 samples.

Results

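The genes described here carry the Hedgehog signal between the cell surface and the nucleus, and were followed through every cell class of embryonic mouse skin. They are Smo, the co-receptor genes Gas1, Cdon and Boc, the transcription factor genes Gli2 and Gli3, the cytoplasmic and ciliary regulators Sufu and Kif7, and Disp1, which acts on the side of the cell that sends the ligand. They were taken by symbol, without regard to their values, and all 9 were found once each among the 32286 features of the count matrices.

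Single cells were prepared from the skin of the dorsolateral flank at stage E13.5, in a mutant and a control group of littermates. The mutant combines Axin2CreER, a recombinase that needs tamoxifen and is driven by the Wnt target gene Axin2, with an allele at the Rosa locus that yields SmoM2YFP, a constitutively active Smoothened joined to a yellow fluorescent protein, once a stop cassette is removed. Its title places SmoM2YFP in the dermis. The title of the control names SmoM2YFP alone and no recombinase, so both groups may carry the allele. The dose and time of tamoxifen are not given in the sources used here. Each group had 1 library from 2 to 3 pooled embryos, so no difference below has a replicate check, no test between groups was possible, and every interval covers counting error only. The genotype fields contradict the titles, since the library titled control is entered as mutant and the library titled mutant as wild type. The groups below follow the titles, and the levels of Hedgehog target genes given further down do the same.

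The mutant library held 11909 barcodes with 73809828 UMIs (unique molecular identifiers, each standing for 1 captured transcript), and the control library 13566 barcodes with 109629368 UMIs. After filtering and removal of called doublets, 8514 mutant and 11527 control cells remained, at medians of 6662 and 7442 UMIs per cell. Of the kept barcode sequences, 39 occurred in both libraries. Leaving them out changed none of the dermal counts below, a check added after the data were seen. Cells were clustered without the 9 genes, the Hedgehog targets and the reporter, and clusters were named from marker genes. Dermal mesenchymal-like cells (4585 mutant, 7324 control), epidermal-like cells (1395 and 556) and muscle-like cells (701 and 990) were the largest named classes, called dermal, epidermal and muscle cells below. Glial-like, mural-like, endothelial-like, macrophage-like, mast-like and erythroid-like cells had between 62 and 358 cells per library. Melanoblast-like and neuron-like cells, with 49 and 9 in the mutant library, were too few to compare. Cluster 0, with 537 mutant and 1373 control cells (6.31% and 11.9%), had all 11 dermal markers, as the dermal class did in both libraries, but was left unnamed, because the nerve gene Prph led it.

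Hedgehog ligands are held at the surface by Patched and by the co-receptors Gas1, Cdon and Boc, which raise the sensitivity of the receiving cell. Ligand binding frees Smoothened, the product of Smo, from inhibition by Patched. Active Smoothened acts at the primary cilium, where Kif7 and Sufu govern whether Gli2 and Gli3 become activators or are held back and cut into repressors. Gli2 is the main activator of the pathway and Gli3 its main repressor, and in skin Gli2 is needed for the growth of hair follicles in response to Shh. Disp1 releases the lipid-bearing ligand from the cells that make it.

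In GRCm38 coordinates (GENCODE M21), Smo lies on chromosome 6 from 29735503 to 29761365, Cdon on chromosome 9 at 35421128 to 35507652, Gli3 on chromosome 13 at 15463235 to 15730026 and Sufu on chromosome 19 at 46396896 to 46488804, each on the forward (plus) strand. On the minus strand, Gas1 lies on chromosome 13 at 60174405 to 60177365, Boc on chromosome 16 at 44485049 to 44558897, Gli2 on chromosome 1 at 118834132 to 119053619, Kif7 on chromosome 7 at 79698098 to 79715720 and Disp1 on chromosome 1 at 183086266 to 183221522. All are protein-coding. Counted genes overlap Gas1 (Gm48488), Gli3 (Gm6556) and Kif7 (Ticrr and 9330171B17Rik) on the opposite strand, and the sources used here do not say how reads there were assigned.

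The promoters of Gli3 and Gas1 are shown because Gli3 in dermal and Gas1 in epidermal cells had the largest difference between the libraries in those classes. Each is 250 bases before and 50 bases after a RefSeq start site in GRCm38.p6, read 5′ to 3′ on the gene's own strand, at chr13:15463473-15463772 for Gli3 (plus strand) and chr13:60177486-60177785 for Gas1 (minus strand). Capitals mark CG dinucleotides.

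Gli3 promoter: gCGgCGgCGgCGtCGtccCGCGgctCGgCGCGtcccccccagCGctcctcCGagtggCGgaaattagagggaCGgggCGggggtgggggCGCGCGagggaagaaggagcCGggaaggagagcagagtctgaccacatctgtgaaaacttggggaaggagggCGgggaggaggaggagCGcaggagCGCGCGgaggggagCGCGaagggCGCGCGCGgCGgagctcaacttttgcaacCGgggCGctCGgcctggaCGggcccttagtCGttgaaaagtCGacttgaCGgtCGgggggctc
Gas1 promoter: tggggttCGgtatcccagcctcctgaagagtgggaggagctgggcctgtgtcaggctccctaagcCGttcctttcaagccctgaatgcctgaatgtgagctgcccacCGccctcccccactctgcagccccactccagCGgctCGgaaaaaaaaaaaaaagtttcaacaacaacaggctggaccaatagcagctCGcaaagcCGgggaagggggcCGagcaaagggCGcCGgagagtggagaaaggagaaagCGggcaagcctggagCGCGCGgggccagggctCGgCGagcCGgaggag

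The Gli3 window held 39 CG dinucleotides and the Gas1 window 17, against a median of 7 over the 32851 promoters of the RefSeq table. Over the 9 windows found for 8 of the genes (Disp1 has 2 start sites), the number ran between 3 and 39. The Gli binding motif GACCACCCA, searched on both strands (TGGGTGGTC on the other), was in none of these 9 windows and in 83 (0.253%) of all promoters, which says only that these letters are not in these windows.

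Levels are given as CPM, the UMIs of a gene scaled to 1000000 UMIs of all cells of a class in 1 library. They were compared between classes and libraries for each gene, and not between genes. Smo, the transducer itself, was detected in all 10 classes compared. It was highest in dermal cells of the mutant library, at 68.9 CPM (95% counting interval 66.0 to 72.0), and in cluster 0 of the control library, at 59.3 CPM (54.4 to 64.6), where dermal cells followed at 56.4 CPM within overlapping intervals. Its lowest level was in macrophages, at 16.1 CPM in the mutant and 18.1 CPM in the control library. The intervals of the highest and the lowest class lay far apart in both libraries, while most neighbours in the order overlapped.

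Co-receptor levels varied more among classes. Gas1, a membrane-anchored protein, had 9336 UMIs in mutant and 24415 UMIs in control dermal cells, the deepest count of the 9 genes. In the mutant library it was highest in cluster 0 (348 CPM) and epidermal cells (338 CPM), whose intervals overlapped, with dermal cells below both at 316 CPM. In the control library dermal cells led at 453 CPM, above cluster 0 at 376 CPM, and epidermal cells stood at 162 CPM beside mural cells at 163 CPM. Macrophages had 5.68 CPM in the mutant and 4.77 CPM in the control library.

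Cdon, an immunoglobulin superfamily co-receptor, was highest in cluster 0 of both libraries, at 106 CPM in mutant and 132 CPM in control cells. Dermal and muscle cells came next, with 51.2 and 43.4 CPM for mutant cells, against 70.1 and 39.0 CPM for control cells. Epidermal cells had 12.8 CPM in the mutant and 9.43 CPM in the control library. Boc, the close relative of Cdon, shared its place in cluster 0 (18.5 CPM in mutant, 18.2 CPM in control) and dermal cells (17.8 and 16.4 CPM), but stood lower in muscle (5.91 and 6.46 CPM) than in epidermal cells (13.53 and 10.46 CPM).

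The Gli genes differed in where they stood highest. Gli2 was highest in dermal cells of both libraries, at 22.6 CPM in mutant and 15.9 CPM in control cells. In the mutant library its dermal interval overlapped that of mural cells, at 13.7 CPM. In muscle Gli2 was at 4.04 and 3.47 CPM. For Gli3, mutant glial cells (33.3 CPM), cluster 0 (32.2 CPM) and muscle (31.7 CPM) had overlapping intervals, and cluster 0 came first with doublets kept and muscle with classes set per cell. In the control library Gli3 was highest in glial cells, at 52.6 CPM, above muscle at 36.7 CPM. In dermal cells Gli3 was at 19.1 CPM in the mutant and 34.8 CPM in the control library. Mutant macrophages had 1 UMI each of Gli3 and Gli2, and control macrophages 2 and 0.

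Sufu and Kif7 had few UMIs per class. Sufu, which binds Gli proteins and restrains them, ran between 6.23 CPM (epidermal) and 14.6 CPM (glial) among mutant classes. Among control classes it was highest in mast cells, on 23 UMIs, low in epidermal cells at 4.11 CPM, and without a UMI in the 62 erythroid cells, where 3 counts would give 4.32 CPM. All neighbours in the Sufu order overlapped. Kif7, a kinesin-like protein of the cilium tip, did not pass 7.24 CPM in any class, and its level was known poorly outside the largest classes. It was at 5.41 CPM (4.60 to 6.31) in mutant and 4.67 CPM (4.11 to 5.29) in control dermal cells, above macrophages at 0.669 CPM (0.0810 to 2.42) and 1.43 CPM (0.525 to 3.12).

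Disp1 differed in order from the receiving side of the pathway. It was highest in muscle cells, at 17.7 CPM in the mutant and 19.2 CPM in the control library, but the interval overlapped the next class in both. Epidermal cells, at 13.3 and 15.6 CPM, and cluster 0, at 14.1 and 14.6 CPM, came next. Dermal cells had 8.99 and 14.1 CPM. With hemoglobin left out, erythroid barcodes came first in the control library. Endothelial cells had 2 UMIs in each library. The ligands themselves were nearly absent from dermal cells, with 0 UMIs of Shh in mutant and 1 in control cells, 2 and 3 of Ihh, and 2 and 1 of Dhh. In glial cells Dhh was at 36.4 CPM (35 UMIs) in the mutant and 18.5 CPM (50 UMIs) in the control library. Disp1 was at 7.29 and 5.56 CPM in the same glial cells.

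**Figure D1:**
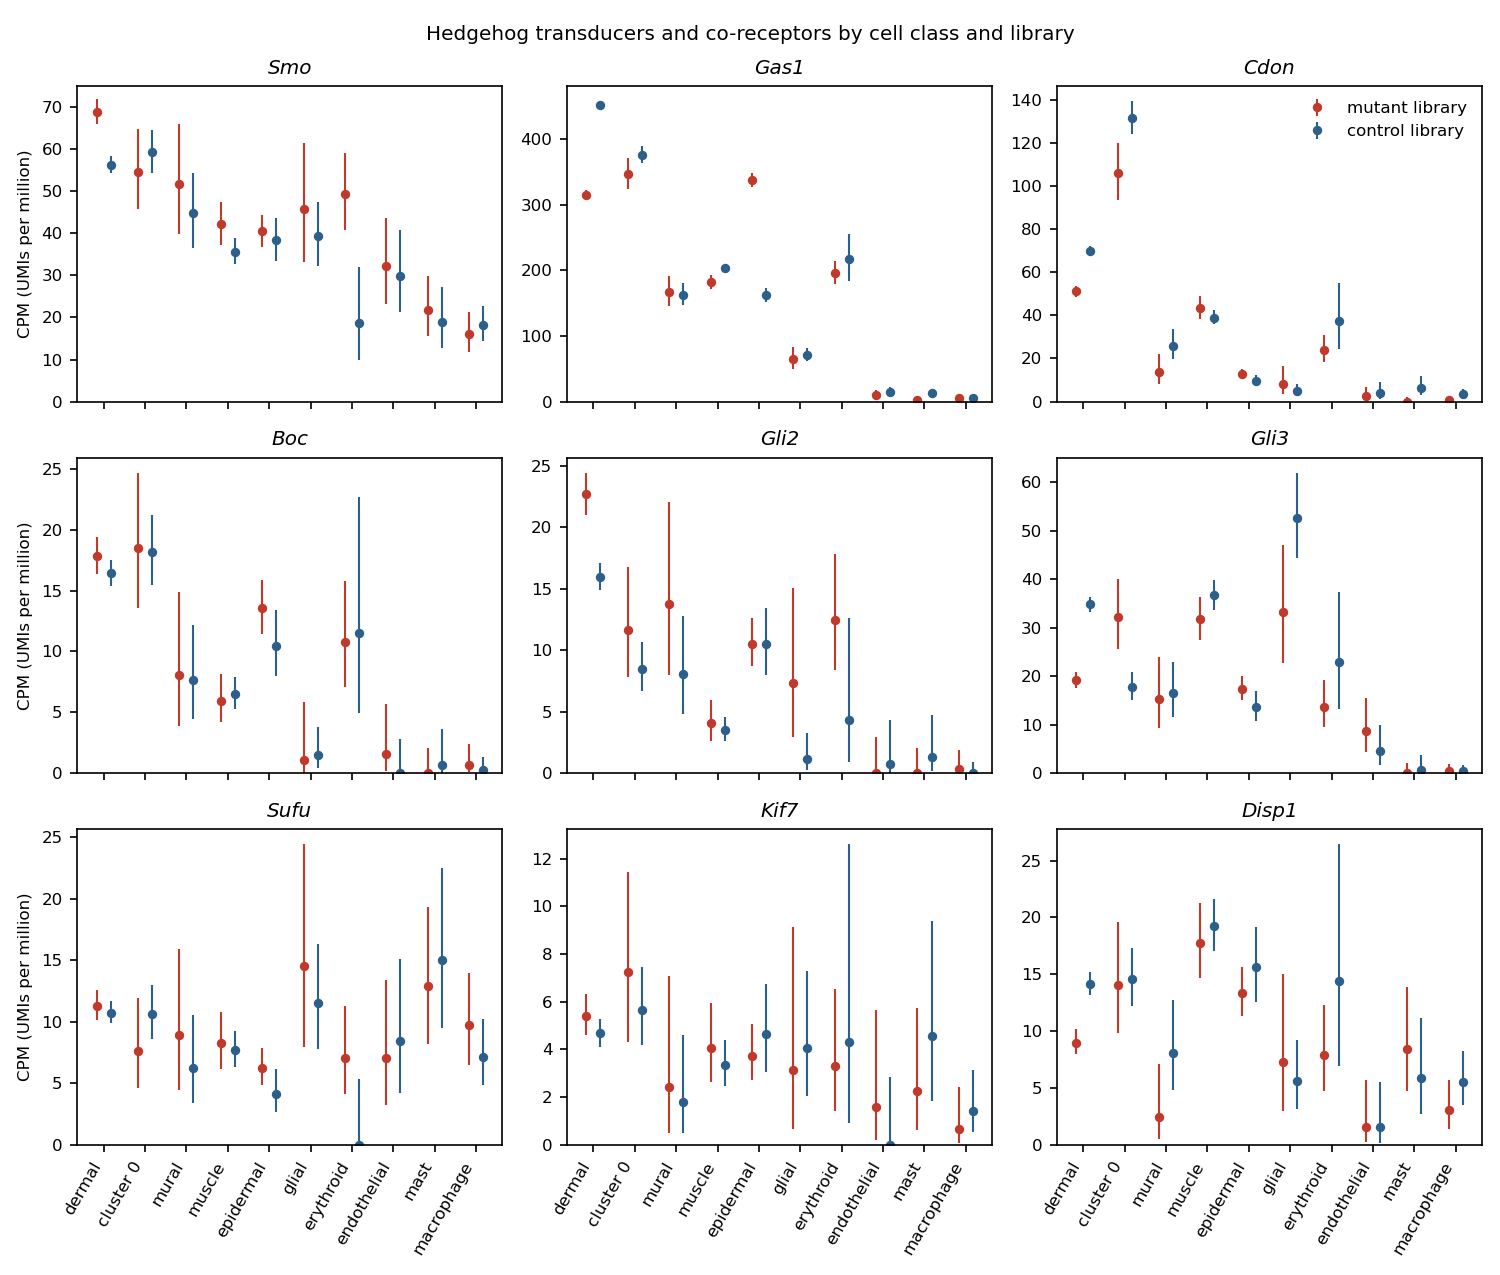
Level of each of the 9 genes (CPM, linear axis) in the 10 classes with at least 50 cells in both libraries; red points are the mutant library, blue points the control library, and bars are exact Poisson 95% counting intervals. Gas1 shows the wide gap between libraries in epidermal cells (338 against 162 CPM), and Gli3 the lower mutant level in dermal cells beside a higher mutant level in cluster 0.

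In dermal cells, where the title of the mutant places SmoM2YFP, the genes of the list went both ways. None of the 9 was higher in the mutant library by at least 1.5-fold, 2 were lower by that much, and 7 were within it. At a 2-fold threshold 0 of the 9 were higher and 0 lower, beside 2.28% and 2.14% of features. Among the 9669 features with a mean of at least 5 CPM over both libraries, 4.96% were higher and 5.71% lower by 1.5-fold. All 9 genes passed this filter, Kif7 just inside it at a mean of 5.04 CPM. Their median log2 ratio (mutant over control) was 0.07, beside -0.00075 over all features.

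Gli3, the repressor, was at 19.1 CPM (566 UMIs) in mutant and 34.8 CPM (1878 UMIs) in control dermal cells, a ratio of 0.549 (counting interval 0.499 to 0.604), or 1.82-fold lower. Disp1 was at 8.99 CPM (266 UMIs) in mutant and 14.1 CPM (762 UMIs) in control cells, 1.57-fold lower (1.37 to 1.81). Neither pair of level intervals overlapped. Gli2, the activator, went the other way at 22.6 against 15.9 CPM, 1.42-fold higher (1.28 to 1.57), which is inside the 1.5-fold limit.

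Of the co-receptors, Gas1 was 1.43-fold lower (1.40 to 1.47) and Cdon 1.37-fold lower (1.29 to 1.45) in mutant dermal cells, while the interval of Boc, at 17.8 against 16.4 CPM, held a ratio of 1. The intervals of Sufu (11.3 against 10.7 CPM) and Kif7 (5.41 against 4.67 CPM) held it too. UMIs assigned to Smo were 1.22-fold higher (1.16 to 1.29), and whether transcripts of the SmoM2YFP allele are among them was not tested. After thinning to equal depth, mutant dermal cells with an eYFP UMI had Smo at 68.4 CPM, and those without one also at 68.4 CPM. This split cannot separate cells with SmoM2YFP from cells without it, because cells without an eYFP UMI had Hedgehog target transcripts too.

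**Figure D2:**
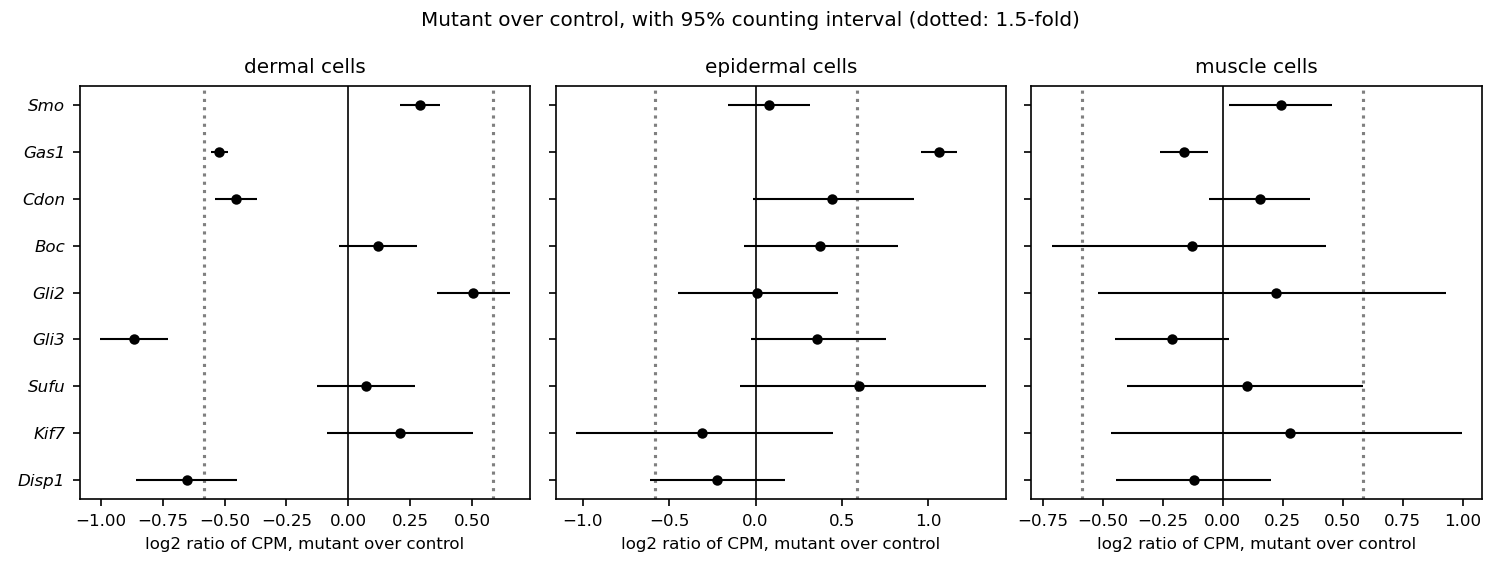
Log2 ratio of CPM, mutant over control, for each gene in dermal, epidermal and muscle cells, with exact 95% counting intervals; dotted lines mark 1.5-fold either way and the solid line no difference. Gli3 and Disp1 lie past the lower line in dermal cells, Gas1 far past and Sufu just past the upper line in epidermal cells, and no gene past either line in muscle.

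The 2 libraries filled different dermal clusters. Of the mutant dermal cells 3603 (78.6%) lay in clusters 2, 3 and 9, which held 11 control cells (0.150%), while control cells lay mostly in clusters 1, 5, 7, 8 and 4. Ptch1, the Patched gene and a Hedgehog target, was at 314, 266 and 429 CPM in mutant cells of clusters 2, 3 and 9. With 1 library per group, cluster and library cannot be told apart there. In 6 dermal clusters, 4, 5, 7, 8, 12 and 13, both libraries had at least 50 cells (936 mutant and 5234 control cells in all), and genes were also compared within them.

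Gli3 varied widely among clusters within each library. In the mutant library it was at 9.58 CPM in cluster 3, 20.3 CPM in cluster 2 and 22.5 CPM in cluster 9, and reached 45.1 CPM in cluster 7. In the control library it ran between 11.1 CPM in cluster 13 and 49.6 CPM in cluster 7, a 4.47-fold range. Within the 6 shared clusters the log2 ratio of Gli3 ran between -0.45 and 0.49 with a mean of -0.07, was below 0 in 4, and had no counting interval clear of a ratio of 1. Disp1 behaved likewise, with a mean of -0.04 over the shared clusters and 3 on each side. The pooled differences of both genes were thus not seen within shared clusters, where the mutant counts were small (for Gli3, between 9 and 50 UMIs per cluster). Smo, 1.22-fold higher in the pooled cells, had a mean log2 ratio of 0.03 over the shared clusters. It was above 0 in 4 and below 0 in 2, with no interval clear of a ratio of 1.

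Gas1 differed in the shared clusters too. Its mean log2 ratio was -0.31, it was lower in the mutant library in 5 of 6 clusters, and in those 5 the interval excluded a ratio of 1. Cluster 8, for example, had Gas1 at 473 CPM in mutant and 560 CPM in control cells. In clusters 2, 3 and 9 of the mutant library it was at 321, 259 and 347 CPM, below every control dermal cluster (366 to 560 CPM). Cdon had a similar mean of -0.30 and was lower in 5 of 6, with no interval clear of 1, and cluster 8 was the exception at 59.9 CPM in mutant and 50.5 CPM in control cells.

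Gli2 was highest where the mutant cells were alone, at 25.5, 22.1 and 28.0 CPM in clusters 2, 3 and 9. Mutant cells of the shared clusters had Gli2 between 9.83 and 19.3 CPM, and control dermal clusters between 11.8 and 18.9 CPM. Its mean log2 ratio over the shared clusters was -0.17, opposite in sign to the pooled 0.51, and no interval there was clear of 1. Ptch1, by contrast, was higher in the mutant library in all 6 shared clusters, at log2 ratios between 1.81 and 3.56, with mutant levels between 21.4 and 55.3 CPM.

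**Figure D3:**
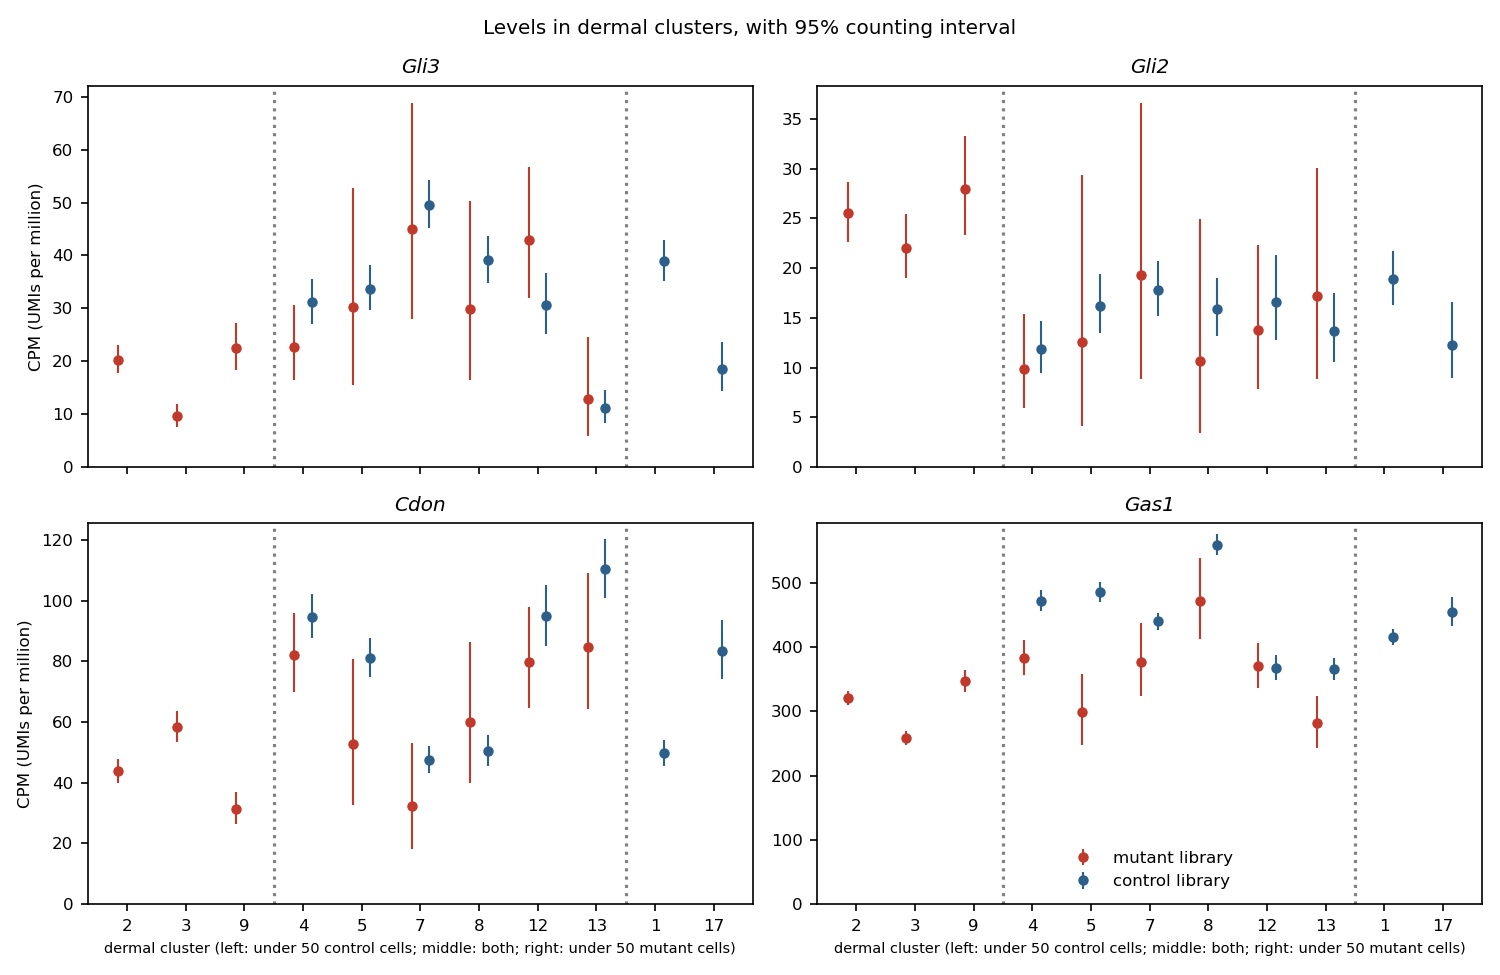
Level (CPM, linear axis) of Gli3, Gli2, Cdon and Gas1 in each dermal cluster with at least 50 cells of a library; red points are the mutant library, blue points the control library, and bars are exact Poisson 95% counting intervals. In the 6 clusters between the dotted lines the Gli3 points of the libraries lie together, while Gas1 is lower in mutant cells in 5 of them, and Gli2 is highest in the mutant clusters on the left.

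Dermal cells were also split by their own target transcripts, after each cell was thinned to 3000 UMIs, by the summed UMIs of Ptch1, Gli1 and Hhip. These are ranges of a count and not cell types. In the mutant library 1676 cells had 0 such UMIs, 1057 had 1, 1161 had 2 to 3 and 418 had 4 or more. The control library had 6798 cells at 0 and 276 at 1, and 11 with 2 to 3, too few to give a level. Median depths before thinning were 6014, 6412, 6523 and 6369.5 UMIs in the mutant ranges.

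Gli2 was higher in each further range of the mutant cells, at 16.7, 23.3, 29.3 and 36.7 CPM, but the intervals of neighbouring ranges overlapped. Between the outer ranges the ratio was 2.20 (1.498 to 3.18), and 1.85 when all UMIs of each cell were used. Mutant cells with 0 target UMIs lay beside control cells with 0, whose interval was 15.3 to 18.9 CPM, and control cells with 1 target UMI had 24.2 CPM. The Gli2 intervals of the libraries overlapped at 0 and at 1 target UMI.

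Gli3 did not follow the ranges in order. It was at 25.1, 10.7, 19.2 and 15.9 CPM in mutant cells from the lowest range up, and at 32.7 and 47.1 CPM in the 2 control ranges. At 0 and at 1 target UMI the mutant level was below the control level, and at 1 the intervals lay far apart (7.43 to 14.98 CPM in mutant, 33.5 to 64.4 CPM in control cells). Gas1 was at 331, 327, 309.5 and 297 CPM over the mutant ranges, all below the 445 CPM of control cells at 0. Cdon was at 59.1, 45.4, 50.2 and 43.9 CPM, and Smo at 64.04, 64.02, 75.5 and 77.4 CPM.

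**Figure D4:**
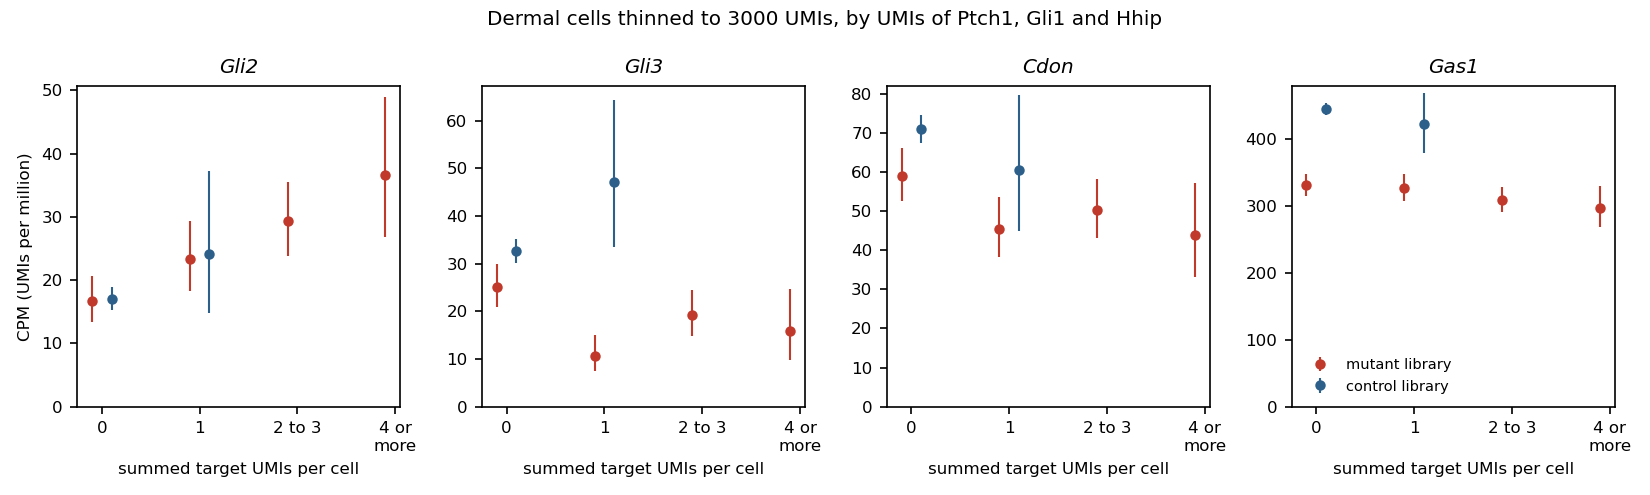
Level (CPM, linear axis) of Gli2, Gli3, Cdon and Gas1 in dermal cells thinned to 3000 UMIs, by the summed UMIs of Ptch1, Gli1 and Hhip per cell; red points are the mutant library, blue points the control library, bars are exact Poisson 95% counting intervals, and ranges with under 50 cells are left out. Gli2 is higher in each further mutant range (16.7 to 36.7 CPM), though the intervals of neighbouring ranges overlap. Mutant Gas1 lies between 297 and 331 CPM, under both control points.

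Further splits of the thinned mutant dermal cells used genes outside the pathway, but these splits also parted the cells by target level. Cells with a UMI of Lef1, a Wnt effector, numbered 665 and had Cdon at 26.6 CPM, against 56.5 CPM in cells without one, a ratio of 0.470 (0.348 to 0.623). Gli2 went the other way there, at 36.6 against 21.3 CPM, a ratio of 1.72 (1.30 to 2.24). Ptch1 was at 451 against 232 CPM, so the split is not independent of the target ranges. In control cells the same split gave ratios of 0.829 (0.676 to 1.01) for Cdon and 1.22 (0.847 to 1.71) for Gli2, which both held 1. With all UMIs of each mutant cell the log2 ratio of Gli2 was 0.53, against 0.78 after thinning. As plain ratios with all UMIs, Gli2 was at 1.44 in mutant and 1.38 in control cells. Cdon was at 0.462 and 0.739, and none of these values has an interval.

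Cells with UMIs of at least 2 genes of the dermal condensate, the cell aggregate under a hair placode, showed the same directions in the mutant library. Cdon was at 28.4 CPM in these 987 cells, against 58.8 CPM in the others, and Gli2 at 32.4 against 21.1 CPM. Ptch1 stood higher in these cells too, at 477 against 203 CPM. Sufu was 1.57-fold higher (1.08 to 2.24) and Disp1 1.84-fold lower (1.08 to 3.34) in them, on 47 and 16 UMIs. With all UMIs the log2 ratios of Gli2 and Disp1 in this split were 0.40 and -0.54, inside 1.5-fold. When mutant cells were split by an eYFP UMI, present in 380 of the thinned cells, the interval held a ratio of 1 for each of the 9 genes. Ptch1 was at 342 CPM in mutant cells with an eYFP UMI and 258 CPM in those without. Control cells without one had 6.03 CPM. The split thus cannot separate cells with SmoM2YFP from cells without it. Cluster 9, where Cdon was lowest in the mutant dermis at 31.5 CPM, also had the highest Ptch1.

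In epidermal cells Gas1 had the largest difference. Gas1 was at 338 CPM (3793 UMIs) in mutant and 162 CPM (944 UMIs) in control epidermal cells, 2.09-fold higher (1.94 to 2.24), the opposite direction to the dermis. It was higher in both large epidermal clusters, at 378 against 186 CPM in cluster 10 and 323 against 135 CPM in cluster 11. The small clusters did not show this. The ratio was 0.923 (0.405 to 2.29) in cluster 24, with 66 mutant and 26 control cells. In cluster 22, with 10 and 3 cells, it was 0.719 (0.393 to 1.34). Dermal marker genes summed to 337 CPM in mutant and 416 CPM in control cells of the whole class, with 0 of 11 at 0 in either. Within clusters 10 and 11 the collagen genes of the dermis went both ways. Col3a1 was at 17.9 against 9.19 CPM in cluster 10 (ratio 1.95, 1.29 to 3.02) and 21.7 against 14.04 CPM in cluster 11 (1.55, 1.03 to 2.39), while Col1a1 was at 7.35 against 15.01 CPM in cluster 10 and 7.72 against 8.78 CPM in cluster 11. The part of dermal RNA in the Gas1 difference was not tested.

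Of the 8 genes of the list measured in epidermal cells, 2 were higher by 1.5-fold and none was lower, beside 4.81% of features higher and 2.75% lower. The second was Sufu, at 6.23 against 4.11 CPM, on 70 and 24 UMIs, and its interval of 0.941 to 2.52 held 1. The log2 ratio of Sufu was 0.55, inside the limit, with TMM scaling, and 1.62 after thinning. Gli2 was at 10.5 CPM in both libraries. Gli3 was 1.28-fold higher on 195 mutant and 79 control UMIs, with an interval of 0.982 to 1.69. The reporter had 8 UMIs in mutant and 2 in control epidermal cells, and Ptch1 was at 10.5 and 7.03 CPM, far below the 267 CPM of Ptch1 in mutant dermal cells.

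Muscle cells showed little difference. Of 7 genes measured, 0 were higher and 0 lower by 1.5-fold, beside 2.79% and 1.57% of features. Gas1 was at 182 CPM in mutant and 203 CPM in control cells, and Gli3, counted at 204 and 540 UMIs, was at 31.7 against 36.7 CPM with a ratio interval of 0.732 to 1.02. Cdon, which is also known for promoting muscle differentiation, was at 43.4 against 39.0 CPM.

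In cluster 0, the unnamed cells with dermal markers, Gli3 ran against the dermis. It was at 32.2 CPM (80 UMIs) in mutant and 17.9 CPM (158 UMIs) in control cells, 1.80-fold higher (1.36 to 2.37). This was 1 gene higher and 0 lower of 9 measured, beside 7.02% and 5.07% of features. Cdon was lower, at 106 against 132 CPM, with an interval of 0.703 to 0.922, and Gas1 was at 348 against 376 CPM. Dermal markers summed to 14082 CPM in mutant and 13886 CPM in control cells of this cluster, above 7146 and 10036 CPM in the dermal class. With cluster 0 counted as dermal, which was decided after the data were seen, the dermal log2 ratio of Gli3 was -0.69 and the counts of 0 higher and 2 lower did not change.

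Small classes gave few firm values. In glial cells 1 of 6 measured genes was higher and 1 lower, beside 9.09% and 6.56% of features: Gli3 was at 33.3 CPM in mutant and 52.6 CPM in control cells (ratio 0.633, 0.417 to 0.934), and the higher gene was Cdon, on 8 and 13 UMIs. The glial log2 ratio of Gli3 was -0.54, inside the limit, as a mean over cells and -1.70 with classes set per cell, and Cdon turned to -0.19 with doublets kept. In mural cells, which wrap vessels, 1 of 8 was higher and 2 were lower, beside 8.42% and 7.25%. They were Gli2 (17 and 18 UMIs), Cdon at 13.7 against 26.0 CPM (0.289 to 0.921) and Disp1 (3 and 18 UMIs). After thinning, the mural log2 ratios of these 3 genes lay inside the limit, at 0.40 for Gli2, -0.09 for Cdon and -0.19 for Disp1. Dermal markers summed to 4019 CPM in mutant and 5028 CPM in control mural cells, and their part in these values was not tested.

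Mast cells had 0 genes higher and 1 lower of 4 measured, beside 7.48% and 7.55%. That gene was Gas1, with 4 UMIs in mutant and 19 in control cells, a ratio of 0.181 (0.0447 to 0.544), or -2.47 on the log2 scale and -0.74 with doublets kept. Dermal markers went with it, at 52.6 CPM in mutant and 230 CPM in control mast cells, with 2 of 11 and 0 of 11 at 0, and their part was not tested. Of 3 genes measured in macrophages none passed 1.5-fold (5.78% and 4.77% of features did), and in endothelial cells Gli3 alone of 4 did, on 11 and 6 UMIs and not after thinning (log2 ratio 0.43; 8.46% higher, 10.3% lower).

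Erythroid barcodes carried dermal markers at 3752 CPM in the mutant and 4997 CPM in the control library, with 0 of 11 at 0. Of 7 measured genes 2 were higher (Smo and Gli2) and 3 lower, beside 23.4% and 10.8% of features. Smo was 2.64-fold higher (1.49 to 5.10), on 119 and 13 UMIs, and Ptch1 was at 141 CPM in mutant and 2.88 CPM in control barcodes. The lower genes, Cdon, Gli3 and Disp1, lay inside the limit with classes set per cell (log2 ratios between -0.37 and -0.27), and TMM scaling shifts all erythroid ratios by 0.15. The part of dermal RNA in the erythroid values was not tested.

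The share of dermal cells with at least 1 UMI of a gene, after thinning to 3000 UMIs per cell, followed the levels. It was 55.8% (54.3 to 57.2) of 4312 mutant and 69.1% (68.0 to 70.1) of 7085 control cells for Gas1. For Gli3 it was 5.40% of mutant and 9.27% of control cells, and for Gli2 6.77% and 4.95%. As background, macrophages carried Gas1 UMIs in 0.940% of the mutant and 1.44% of the control cells. They carried Gli3 UMIs in 0 of 319 mutant cells, which allows up to 0.940%, and 0.287% of control cells. Erythroid barcodes, planned as the other background class, stood much higher. Dermal markers summed to 3752 CPM (mutant) and 4997 CPM (control) in them, against 122 and 149 CPM in macrophages. They are thus a poor background for genes of dermal cells. Erythroid barcodes had Gas1 UMIs in 38.4% of 250 mutant and 58.1% of 62 control barcodes, and Gli3 UMIs in 2.4% and 6.45%.

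Unthinned, the dermal Gas1 shares were 76.1% and 89.2%, and the Gli2 shares 13.1% and 10.8%, at medians of 6088 and 7032 UMIs in dermal cells and of 8709 and 11096 UMIs in macrophages. Thinning left out 273 mutant and 239 control dermal cells. In epidermal cells the thinned Gas1 share was 57.0% for mutant and 33.8% for control cells, and 83.0% and 66.7% unthinned, at medians of 7673 and 9804.5 UMIs.

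Around these genes, the Hedgehog targets were high in mutant dermal cells: all 3 measured here were past 1.5-fold, with a median log2 ratio of 4.99. Ptch1 was at 267 CPM in mutant and 5.71 CPM in control cells, Hhip, a secreted antagonist, at 157 against 4.95 CPM, and Gli1, the Gli factor that is itself a target, at 37.8 against 3.37 CPM. The reporter had 927 UMIs in mutant and 22 in control cells.

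Of 56 further pathway genes, listed with earlier results of these data known, 54 were in the files and 40 were measured in dermal cells, with 1 higher and 4 lower by 1.5-fold, beside 4.96% and 5.71% of all features. Evc2, which relays the Smoothened signal at the base of the cilium, was the higher one, at 13.2 CPM in mutant and 8.33 CPM in control cells. The lower ones included Scube1 and Scube2, of a family that takes part in ligand release, at 2.81 against 9.09 CPM and 6.86 against 24.9 CPM. Rpgrip1l, of the ciliary transition zone, was at 27.4 against 49.2 CPM, and Zic1, a zinc finger factor related to the Gli proteins, at 19.4 against 67.3 CPM.

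By role, ligand release had 0 higher and 2 lower of 3 measured, surface modulators 0 and 0 of 5, Smoothened trafficking 1 and 0 of 8, the cilium 0 and 1 of 11, and Gli processing 0 and 1 of 13. Their medians lay between -0.06 and 0.04, apart from -1.70 for ligand release. In the same cells 4 of 7 dissociation stress genes were higher (median 0.97), erythroid markers summed to 1062 CPM in mutant and 177 CPM in control cells with 0 and 1 of 10 at 0, and all 12 cell cycle genes were within 1.5-fold (median 0.10). Their part in the differences above was not tested. In epidermal cells 3 of 8 stress genes were higher, with a median of 0.10.

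Across 21 sums of a class and a library, the genes most like each of the 9 were taken by Pearson correlation of log2(CPM + 1) among 8009 features. The sums share libraries and differ in depth, so these values are descriptions. Boc was closest to Cacnb3 (r = 0.96), Slc1a3 (0.94) and Gas1 (0.93), so 1 of the 3 nearest genes to Boc was another co-receptor. Gas1 was closest to Mir100hg (0.98), Rgma (0.97) and Spats2l (0.97), and Cdon to Ptprd (0.94), AW551984 (0.94) and Ssbp2 (0.93).

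Gli2 lay nearest to Hoxc8 (0.94), Rgma (0.92) and Cacnb3 (0.92), and shared the last with Boc. Gli3 lay nearest to Podxl2 (0.96), Pard3 (0.95) and Ptov1 (0.94), and had a correlation of 0.65 with Gli2. Smo lay nearest to Cand2, Zfp637 and Stx16 (0.91 each), Sufu to Ing3 (0.89), Tmem87a (0.89) and Ciz1 (0.87), Kif7 to Zfp251 (0.83), Trim44 (0.80) and Lpar1 (0.79), and Disp1 to Ank3 (0.75), Jmjd7 (0.74) and Capn6 (0.73).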

How the data were processed

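The authors deposited UMI counts per gene and barcode, 1 matrix per library, as raw whole numbers of 10x Genomics 3′ v3.1 libraries. Reads were processed with Cell Ranger 5.0.1 against mm10, per the submitters' processing notes, and the file headers list an eYFP feature. Per the labels' protocols, the skin was digested with trypsin (0.25%, 37 °C, 20 minutes), DAPI-stained cells were sorted, and 1 sequencing lane took both libraries. The lowest barcode had 500 UMIs. Groups follow the titles.

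Barcodes with at least 1000 genes and at most 10% mitochondrial UMIs were kept (8783 mutant, 12120 control). Scrublet (scanpy 1.11.5, expected rate 8%) called 269 (3.06%) and 593 (4.89%) doublets, which were left out of all sums. Cells were scaled to 10000 UMIs and log transformed. Leiden clusters at resolution 1.0 (2000 variable genes, 30 components, 15 neighbours, no batch correction) were named from 14 marker lists, which needed at least 3 detected markers and no lead of another class among the top 10 genes. Classes with at least 50 cells per library were summed to CPM. Levels carry exact Poisson, ratios exact conditional binomial and shares exact Clopper-Pearson 95% intervals, tested on simulated data. They cover counting error only, and UMIs of 1 cell are not independent. Beside a count of 0, 3 counts set the limit. Genes need a mean of 5 CPM to be counted, at a threshold of 1.5-fold.

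The genes, lists, markers and settings were chosen with earlier results of these data known. Named genes were all 9 members, 3 targets, pathway genes past 1.5-fold in dermal cells and the 3 genes most like each member and the reporter; others named were chosen after their values were seen. Gene IDs were matched to GENCODE M21 (32158 of 32286), and promoters came from RefSeq (GRCm38.p6). Alternatives were TMM scaling, no hemoglobin, doublets kept, per-cell classes, thinning, stricter barcodes, per-cell means, other filters and shared clusters. Protein sequences were not used here, and 1 target gene is not reported here. Further software was leidenalg 0.10.2, matplotlib 3.10.9, scikit-learn 1.9.0, scipy 1.17.1, Python 3.11.15, pandas 2.3.3 and numpy 2.4.6.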

Additional observations from a re-analysis of the deposited data

Results flagged for a closer look

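Gas1 and Gli3 differed in opposite directions between classes, and the differences between classes were not tested. The Gas1 ratio, mutant over control, was 2.09 in epidermal cells and 0.181 in mast cells, where it rests on 4 mutant and 19 control UMIs. With called doublets kept, the log2 ratio of Gas1 in mast cells was -0.74. The Gli3 ratio was 1.80 in cluster 0, against 0.549 in dermal cells and 0.633 in glial cells. Each of these ratios had a counting interval clear of 1, which does not cover the spread between embryos.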

How the results depend on the processing

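Each dermal ratio was recomputed under 10 settings, 2 of them (cluster 0 as dermal, shared barcodes left out) added after the data were seen, which gave 90 values: 88 kept their sign, 16 lay outside the counting interval of the reported value, and the largest shift was 0.79 on the log2 scale. The 2 values of other sign were Gli2 (-0.17) and Sufu (-0.48), both from the equal-weight mean over the 6 shared clusters. That mean also gave -0.07 for Gli3 and -0.04 for Disp1, while all other settings left Gli3 between -0.95 and -0.66. After thinning 1 member was higher by 1.5-fold (Kif7, at 0.60). At a 2-fold threshold 0 members were lower, and of other pathway genes 0 were higher and 3 lower. With a minimum of 20 CPM, 4 members remained, 1 lower, at a median of -0.49, and of other pathway genes 0 were higher and 2 lower. Other pathway genes numbered 5 higher with no filter and 0 higher with per-cell means. The cause was not tested, apart from the smaller number of genes under the 20 CPM filter. Of 365 values in other classes 332 kept their sign, 20 lay outside the interval and the largest shift was 2.10, and Cdon in glial cells reversed to -0.19 with doublets kept. Other small-class values that crossed the 1.5-fold limit stand beside their results. Mural cells gave no value under per-cell classes. Depth limits Kif7 everywhere, and most genes in classes under 400 cells. No paired analysis was possible because each group had 1 library.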
